A study of Rattus norvegicus with 6 samples.

Results

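Gfap, Vim, Nes, Glul, Aldoc, Ndrg2, Apoe, Clu and Cst3 are genes used to follow astrocyte identity and maturation, and all 9 of them were found among the 12121 genes with counts. They were taken by symbol from the gene names of the count tables. Gfap, Vim and Nes encode intermediate filaments, Glul, Aldoc and Ndrg2 are markers of astrocyte metabolism and cytoplasm, and Apoe, Clu and Cst3 encode secreted proteins. Their RNA was measured by RNA-seq in C6 cells, an established rat glioma line. The C6-AQP1 group (3 libraries) carried an expression vector for the water channel aquaporin 1, with the insert downstream of a CMV promoter. For its other assays the study names a control line transfected with Pcdh, a name that matches the vector. The sequenced C6 control group (3 libraries) is labelled only as control, and it is not stated whether these cells held an empty vector. Nor is it stated whether C6-AQP1 was a single clone or a pool, or whether replicates were grown as separate cultures, so that p-values rest on library-to-library spread that may be purely technical.

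Intermediate filaments are rope-like polymers of the cytoskeleton, and glial cells change their composition as they develop. Radial glia and progenitors carry nestin and vimentin, and maturing or reactive astrocytes add GFAP, the glial fibrillary acidic protein. Mature astrocytes also turn glutamate into glutamine, run a brain form of the glycolytic enzyme aldolase, and release lipid-carrying and protease-inhibiting proteins. Gliomas often keep part of this programme and lose another part, and C6 cells are commonly used as a glial model.

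Over the 12121 genes the libraries held between 19054244 and 52725870 expected counts, and replicate 1 was the shallowest of both groups. Aqp1 itself had 347, 352 and 349 normalized CPM (library-size-scaled counts, TMM method) in C6 control replicates 1, 2 and 3, and 1052, 1064 and 1057 in the C6-AQP1 replicates. The groups did not overlap, and edgeR's quasi-likelihood test gave a log2 fold change of 1.60 with a standard error of 0.02 and an adjusted p of 5.8e-25.

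All 9 marker genes rose in C6-AQP1 cells, but by very unequal amounts. Gfap was 11.9-fold, Clu 5.46-fold and Ndrg2 3.59-fold higher, Aldoc and Cst3 2.79-fold and 2.51-fold, and Apoe, Vim and Glul 1.83-fold, 1.62-fold and 1.58-fold. Nes, the progenitor filament, was only 1.2-fold higher. A gene rose or fell here if its adjusted p from edgeR was under 0.05. By this bar 40.8% of all 12121 genes rose and 40.7% fell, so a rise on its own is common in these libraries. The median log2 fold change was 1.33 over the 9 genes and 0.00 over all genes. DEGs, with an adjusted p under 0.05 and more than a 2-fold difference, made up 5 of the 9 genes (Gfap, Aldoc, Ndrg2, Clu and Cst3), all of them higher. Of all genes 9.74% were DEGs that were higher and 4.35% DEGs that were lower. For each of the 9 genes the lowest C6-AQP1 value exceeded the highest control value, which was true of 41.3% of all genes. RNA was taken from whole cultures, so a larger share of cells with a transcript and more of it per cell cannot be told apart.

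**Figure D1:**
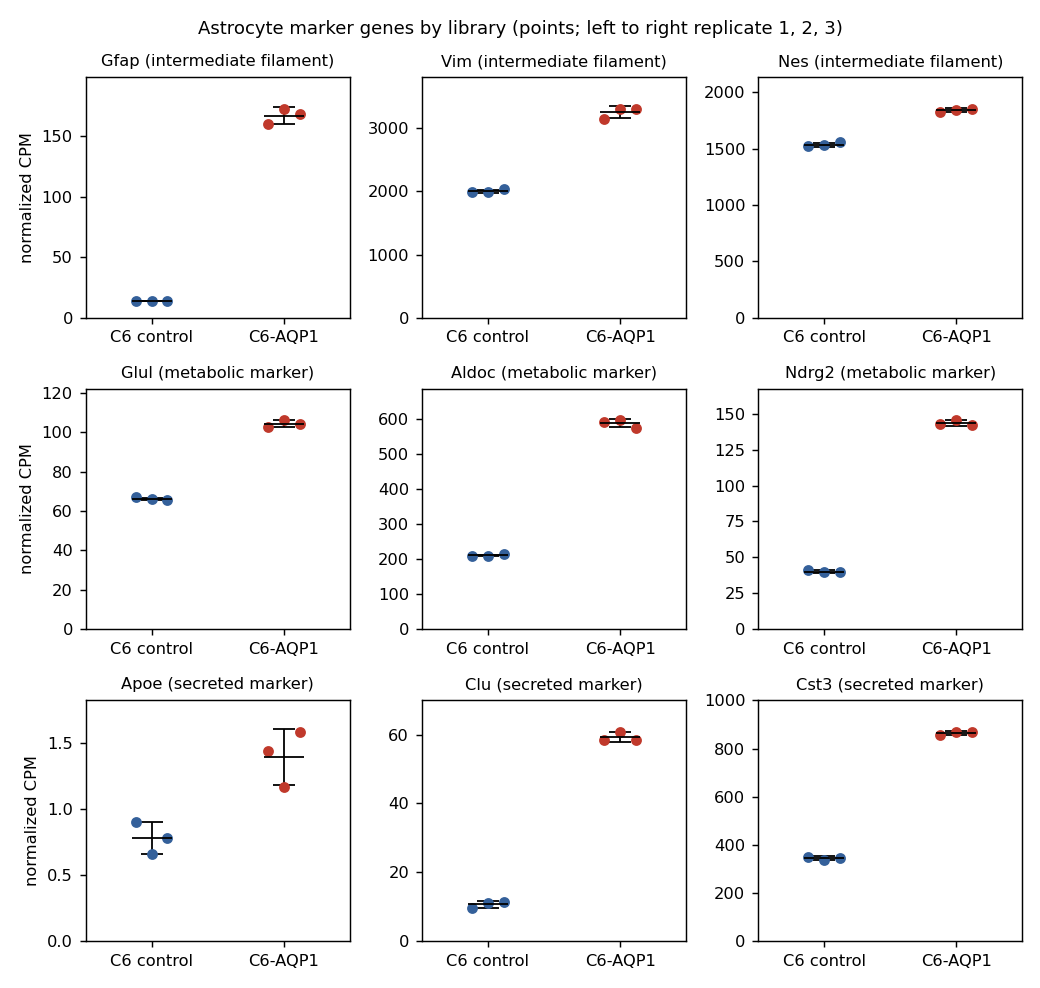
Normalized CPM of the 9 genes, each panel with its own linear axis from 0. Points are libraries, with black marks for group means and SDs (n = 3). C6-AQP1 libraries lie above C6 control libraries in every panel, with Gfap going from about 14.0 to 167 CPM and Nes from 1536 to 1840.3 CPM. The spread is widest for Apoe, the gene with the fewest counts.

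Gfap encodes the filament by which mature and reactive astrocytes are recognised. In the control replicates 1, 2 and 3 it had 14.0, 14.1 and 14.0 normalized CPM, from 312, 730 and 716 counts. In the C6-AQP1 replicates it had 159.6, 173 and 168 CPM, from 3116, 7133 and 7125 counts. The 2 groups were thus far apart, and the lowest C6-AQP1 library was 11.3-fold above the highest control. By edgeR's quasi-likelihood test the log2 fold change was 3.57 (standard error 0.04, 95% interval 3.50 to 3.65) with an adjusted p of 2.8e-25. Only 0.578% of all genes had a higher log2 fold change.

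Vim encodes vimentin, the filament shared by progenitors, mesenchymal cells and most cultured cells. Its control libraries had 1988, 1983 and 2031 normalized CPM, and its C6-AQP1 libraries 3134, 3305 and 3307. C6-AQP1 replicate 1 was the lowest of its group and still clearly above all controls. The log2 fold change of 0.70 (standard error 0.02, 95% interval 0.66 to 0.74) did not reach the 2-fold limit of a DEG.

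Nes encodes nestin, a filament of neural progenitors and of many gliomas. It had 1519.7, 1532 and 1557 normalized CPM in the controls and 1823, 1841 and 1856 in C6-AQP1. These ranges were narrow and separate, and the log2 fold change was 0.26 (standard error 0.02, 95% interval 0.23 to 0.30, adjusted p = 4.8e-12 from edgeR). Nes had counts with decimals in 4 of the 6 libraries, which means that RSEM divided some of its reads with other genes. The other 8 genes showed no decimals. Counts were checked at 6 significant digits, which removes any decimals from the largest Vim counts, so shared reads of Vim cannot be judged there.

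The 3 filament genes were also compared with each other inside each library, where the scaling between libraries plays no part. Of the counts of these 3 genes together, Gfap took 0.395% ± 0.00586 in C6 control and 3.18% ± 0.0664 in C6-AQP1 (SD, n = 3). The part of Vim went from 56.3% ± 0.136 to 61.8% ± 0.482 and that of Nes from 43.3% ± 0.134 to 35.0% ± 0.538. These are shares of reads, not of molecules, since long transcripts give more reads and transcript lengths were not used. For the same reason no level is compared between genes. Of the counts of all 12121 genes, the 3 filaments together made up 0.348% ± 0.00459 in a control library and 0.536% ± 0.00986 in a C6-AQP1 library.

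The stretch of DNA just before the start of each filament gene is shown here as a description. Whether it bears on the unequal rises of the 3 genes was not tested. Each line gives the 250 bases before the annotated transcript start, taken from RefSeq on the build GRCr8 and written 5′ to 3′ along the gene, and capitals mark CpG dinucleotides. The Gfap window is chr10:88361662-88361911, strand minus, the Vim window chr17:81577011-81577260, strand plus and the Nes window chr2:175736338-175736587, strand plus. The counts were made on rn6, so these coordinates do not apply to the build of the counts.
Gfap: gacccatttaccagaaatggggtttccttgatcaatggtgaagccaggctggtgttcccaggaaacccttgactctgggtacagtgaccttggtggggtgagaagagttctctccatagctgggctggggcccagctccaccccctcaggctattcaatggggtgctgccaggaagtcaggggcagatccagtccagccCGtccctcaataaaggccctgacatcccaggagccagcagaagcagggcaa
Vim: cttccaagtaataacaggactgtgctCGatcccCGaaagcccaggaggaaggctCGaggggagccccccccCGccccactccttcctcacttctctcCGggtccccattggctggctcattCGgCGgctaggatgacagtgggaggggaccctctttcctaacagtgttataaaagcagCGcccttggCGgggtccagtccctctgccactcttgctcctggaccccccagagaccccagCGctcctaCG
Nes: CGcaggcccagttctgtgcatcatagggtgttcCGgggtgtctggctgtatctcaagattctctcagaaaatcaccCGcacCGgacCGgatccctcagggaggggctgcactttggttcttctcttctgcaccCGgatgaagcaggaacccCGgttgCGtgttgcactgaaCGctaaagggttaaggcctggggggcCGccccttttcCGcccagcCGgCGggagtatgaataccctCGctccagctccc
The 3 windows were similar in GC content, with 57.6% for Gfap, 62.4% for Vim and 60.4% for Nes, against a median of 51.2% over 33469 such windows of the table. They differed in CpG dinucleotides, of which Gfap had 1, Vim 11 and Nes 14, with a median of 5 over all windows. Of all windows, 18.1% had at most 1 and 33.6% had at least 11.

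The table matched 8 of the 9 genes with 12 windows, some genes having several starts. Clu was not matched. The other windows had 6 CpG dinucleotides for Aldoc, 8 for Cst3, 13 and 15 for the starts of Glul, 18 and 12 for those of Ndrg2, and 10, 8 and 3 for those of Apoe. Motifs were searched in the same 250 bases, on both strands except for the TATA box, and within a window no match overlapped another. Windows of 2 Apoe starts overlap and hold the same pair of Sp1 matches, which are counted in both. The Sp1 motif GGGCGG was in 10 of the 12 windows and in 30.5% of all windows. It was missing from the Gfap window and from the start of Apoe with 3 CpG dinucleotides. The TATA box TATAAA was found only in the Vim window, starting 82 bases before the annotated transcript start, and in 8.06% of all windows. The STAT motif TTCNNNGAA (in 7.67% of all windows) and the AP-1 motif TGANTCA (in 6.34%) had no match in the 12 windows. The E-box CANNTG, in 65.5% of all windows, was in 4 of the 12, and the NF1 motif TTGGCA, in 12% of all windows, in 2 of the 12. Such matches describe letters of the sequence and say nothing about binding. Sites farther upstream were not searched.

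Among the metabolic markers, Glul encodes glutamine synthetase, which turns glutamate and ammonia into glutamine. It had 66.9, 66.0 and 65.7 normalized CPM in C6 control and 103, 106 and 104 in C6-AQP1. The replicates lay close together in both groups, and the log2 fold change was 0.66 (standard error 0.03, 95% interval 0.60 to 0.72, adjusted p = 4.1e-15 from edgeR).

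Aldoc encodes aldolase C, the brain form of the glycolytic enzyme. It had 211, 209 and 214 normalized CPM in the controls and 592, 597 and 575 in C6-AQP1, a log2 fold change of 1.48 (standard error 0.02, 95% interval 1.43 to 1.52). Aldoa, the aldolase of muscle and most other cells, went the other way, from 1440.2 ± 23.4 to 1171 ± 16.5 CPM (SD, n = 3), and edgeR put its log2 fold change at -0.30 (standard error 0.02) with an adjusted p of 1.5e-12.

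Ndrg2 encodes a cytoplasmic protein enriched in astrocytes and often reduced in gliomas. The control libraries had 41.3, 39.5 and 39.6 normalized CPM, and the C6-AQP1 libraries 143, 145 and 142. The log2 fold change was 1.84 (standard error 0.03, 95% interval 1.78 to 1.91), the highest of the metabolic markers. All 3 relatives with counts rose too, with log2 fold changes of 1.26 for Ndrg1, 0.74 for Ndrg3 and 0.62 for Ndrg4. Of these Ndrg1, a stress- and hypoxia-responsive gene, had 137 ± 4.15 CPM in C6 control and 329 ± 5.16 in C6-AQP1 (SD, n = 3).

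Among the secreted markers, Clu encodes clusterin, an extracellular chaperone also known as apolipoprotein J. It had 9.51, 11.2 and 11.3 normalized CPM in C6 control and 58.6, 60.9 and 58.4 in C6-AQP1. Control replicate 1 was somewhat below the other controls, and all C6-AQP1 libraries were at least 5.15-fold above every control. The log2 fold change was 2.45 (standard error 0.05, 95% interval 2.34 to 2.56, adjusted p = 1.3e-20 from edgeR).

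Cst3 encodes cystatin C, a secreted inhibitor of cysteine proteases. It had 351, 338 and 345 normalized CPM in the controls and 858, 870.3 and 868 in C6-AQP1, a log2 fold change of 1.33 (standard error 0.02, 95% interval 1.29 to 1.37). Apoe encodes apolipoprotein E, the main lipid carrier that astrocytes release in brain, and it was barely expressed in these glioma cells. Its control libraries had 20, 34 and 40 counts (0.897, 0.657 and 0.782 normalized CPM), and its C6-AQP1 libraries had 28, 48 and 67 counts (1.43, 1.16 and 1.58 CPM). The groups were separate but close, and the log2 fold change was 0.87 (standard error 0.23, 95% interval 0.39 to 1.35, adjusted p = 0.00164 from edgeR). At this depth the size of the rise of Apoe is poorly known. Without C6-AQP1 replicate 2 its log2 fold change was 1.00, just past the DEG limit.

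**Figure D2:**
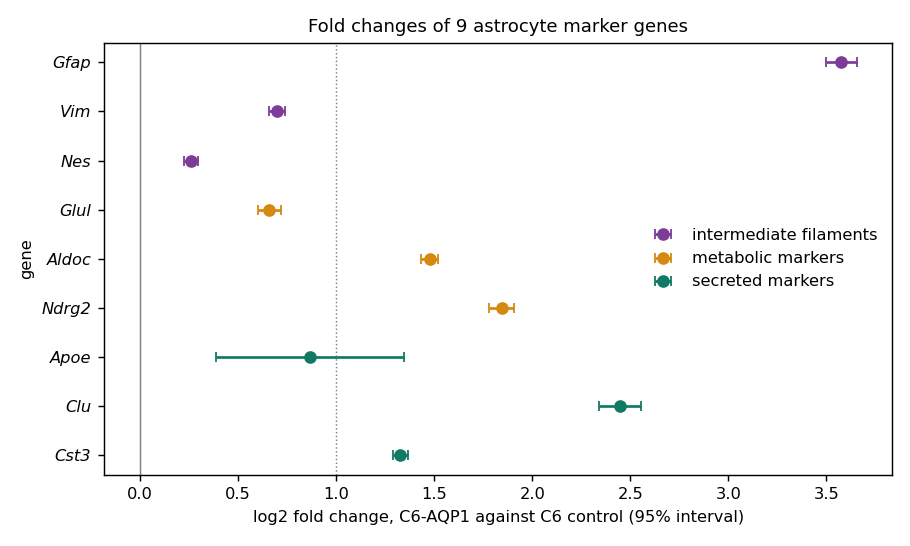
Log2 fold change of the 9 genes between C6-AQP1 and C6 control, with 95% intervals from edgeR. The solid line marks no change and the dotted line the 2-fold limit. Filaments hold both the highest value (Gfap, 3.57) and the lowest (Nes, 0.26), and the metabolic and secreted markers lie between 0.66 and 2.45.

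To compare the filaments with the other markers, the ratio of their counts was taken within each library. The 3 filaments did not move as a class against the 6 metabolic and secreted markers. Gfap gained on all 6, Nes lost against all 6, and Vim lost against most of them. In C6-AQP1 the ratio of Gfap to Glul was 7.54-fold higher than in C6 control, that to Cst3 4.73-fold, that to Aldoc 4.26-fold, that to Ndrg2 3.32-fold and that to Clu 2.13-fold. The ratio to Apoe was 6.67-fold higher. The ratio of Nes was lower by 4.65-fold against Clu, 2.98-fold against Ndrg2, 2.33-fold against Aldoc, 2.09-fold against Cst3, 1.48-fold against Apoe and 1.32-fold against Glul.

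Vim was lower by 3.43-fold against Clu, 2.20-fold against Ndrg2, 1.72-fold against Aldoc and 1.55-fold against Cst3. Its log2 ratio to Glul differed by only 0.04 (standard error 0.02), and the groups overlapped in this ratio, with values between 4.89 and 4.95 in C6 control and between 4.93 and 4.99 in C6-AQP1. Against Apoe the difference was -0.13 (standard error 0.19), less than the spread between libraries. Within the filaments, Gfap gained 7.31-fold on Vim and 9.91-fold on Nes, and Vim gained 1.36-fold on Nes. The 21 ratios share genes, so they are not independent. Ratios of other gene pairs were not examined, so a background for the following count is missing. With 40.8% of all genes rising and 40.7% falling, groups that do not overlap in a ratio may be common in these libraries. In 19 of the 21 ratios the 2 groups did not overlap. An exact permutation test, two-sided, gave p = 0.10 for these 19, the smallest value that 3 libraries against 3 allow, and 0.111 after Benjamini-Hochberg adjustment over the 21 ratios. The exact p was 0.20 for Vim to Glul and 0.50 for Vim to Apoe. No ratio could pass 0.05 with so few libraries.

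**Figure D3:**
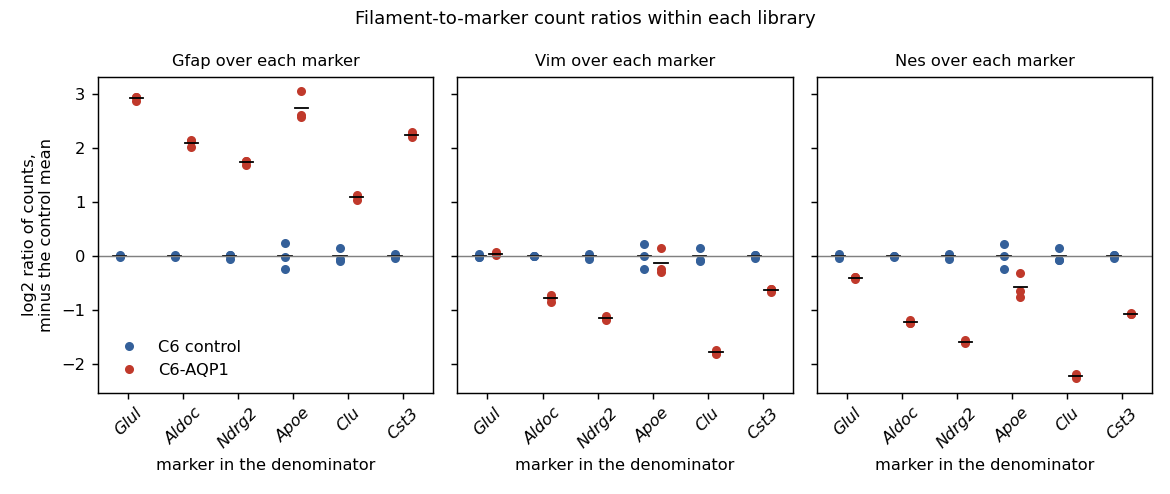
Log2 ratio of the counts of Gfap, Vim and Nes to those of the 6 other markers within each library, after subtraction of the mean of the control libraries. Points are libraries and black bars are group means. Ratios of Gfap lie above the controls by 1.09 to 2.91 and ratios of Nes below them by 0.40 to 2.22, while Vim lies near the controls against Glul and Apoe and below them against the rest.

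Other genes of the same systems were then followed in lists of partners, which leave out the 9 genes themselves. Over all genes 40.8% rose and 40.7% fell. A gene nearly silent in a group is in the count tables only if it passed the TPM limit in the other group. Such genes can raise the numbers of genes called and shift the list medians, and how far was not tested. In the list of other cytoplasmic intermediate filaments, which also holds the related genes Iffo1 and Tchp, 6 of 20 genes had counts. Of these, 2 rose, 3 fell and 1 did not pass (median log2 fold change -0.16). Synm encodes synemin, a filament that joins vimentin and GFAP, and it rose by 1.42 on the log2 scale, from 179 ± 3.11 to 477 ± 6.22 CPM (SD, n = 3). Iffo1, a filament family member linked to the nuclear envelope, had a log2 fold change of 1.10. The neurofilament Nefm fell from 22.1 ± 1.37 to 5.46 ± 0.212 CPM, a log2 fold change of -2.02. Prph, the peripherin of peripheral neurons, and the keratin-binding Tchp had log2 fold changes of -0.22 and -0.26, and Nefl had 22.9 ± 0.851 and 21.5 ± 0.598 CPM (adjusted p = 0.105 from edgeR).

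Lamins, the filaments of the nucleus, and the proteins around them went mostly down. Of 12 lamins and lamina partners 2 rose, 9 fell and 1 did not pass (median log2 fold change -0.32), while 40.7% of all genes fell. The B-type lamins Lmnb1 and Lmnb2 had log2 fold changes of -0.74 and -0.81, and Banf1, a chromatin-bridging protein of the lamina, had -1.08. Of the proteins that link filaments to other structures or chaperone them, 11 of 16 had counts, of which 7 rose, 2 fell and 2 did not pass (median 0.53). Dst, the giant linker dystonin, rose by 1.46 on the log2 scale, from 638 ± 11.1 to 1748 ± 31.9 CPM (SD, n = 3). The small heat shock protein Hspb8 had -3.90. Plec, which encodes plectin and was picked after its values were seen, had a log2 fold change of 0.66.

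Of 51 other astrocyte markers 30 had counts, and 23 of these rose, 5 fell and 2 did not pass, with 15 DEGs that were higher and none that was lower. The median log2 fold change was 1.02. Atp1b2 encodes a beta subunit of the sodium pump, and it went from 3.06 ± 0.231 to 86.3 ± 3.30 CPM (SD, n = 3), which is 4.83 on the log2 scale. Kcnj10, the potassium channel of astrocyte endfeet, had a log2 fold change of 4.60. Of classical markers looked at after the values were known, S100b, a calcium-binding protein, had 219 CPM in C6 control and 346 in C6-AQP1, the gap junction gene Gja1 had 109 and 243, and the glutamate transporter gene Slc1a3 only 1.60 and 3.51. Of the 5 that fell, also looked at afterwards, Chst10, a sulfotransferase gene, had a log2 fold change of -0.94, Cpe, carboxypeptidase E, -0.71 and F3, tissue factor, -0.51. The 21 markers of this list without a count here included defining ones of mature astrocytes, namely the water channel gene Aqp4, the glutamate transporter gene Slc1a2, the folate enzyme gene Aldh1l1 and the connexin gene Gjb6. They may have fallen under the TPM limit or stand under another name, so an absence of reads is not shown.

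Of 37 genes of reactive astrocytes 24 had counts, and 14 rose and 10 fell (median log2 fold change 0.29). Lcn2, a secreted iron-binding protein, had a log2 fold change of 3.96 and went from 1.78 ± 0.150 to 27.4 ± 1.12 CPM (SD, n = 3). The complement gene C3 and the matrix gene Fbln5 had 4.28 and 3.22, both from under 1 CPM in the controls. The list held 6 DEGs that were higher and 3 that were lower. The 3 lower ones, looked at afterwards, were S100a10 (-1.01), Clcf1 (-1.22) and B3gnt5 (-1.45). Of these, S100a10 went from 992 CPM in C6 control to 492 in C6-AQP1. Among signals known to induce Gfap (cytokine receptors, BMP and Notch), 33 of 41 genes had counts, of which 22 rose, 7 fell and 4 did not pass (median 0.35). Notch1 and its ligand Jag1 had log2 fold changes of 1.08 and 1.16, and Il11, a cytokine of the same receptor family as LIF, had -2.83. Stat3, which carries the cytokine signal to the nucleus and was picked after its values were seen, had 0.62. Of 23 progenitor and early glial genes 11 had counts, and 5 rose, 5 fell and 1 did not pass (median -0.03). Ptprz1, which is also in the list of astrocyte markers, and Hopx, a gene of outer radial glia, rose by 1.40 and 1.31 on the log2 scale, while Hmga2, a chromatin protein of early progenitors, fell by 1.67.

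Around Apoe and Clu, 21 of 27 genes of lipoprotein receptors and lipid export had counts, and 10 rose, 9 fell and 2 did not pass (median log2 fold change 0.00). Apod, another apolipoprotein, and Abca1, which loads lipid onto apolipoprotein E, had 2.81 and 2.5. Around Cst3, 9 of 17 cystatins and cathepsins had counts, and 7 rose and 2 fell (median 0.66). Lgmn, the protease legumain, Ctsf, the cysteine protease cathepsin F, and Ctsb, cathepsin B, had log2 fold changes of 1.44, 0.92 and 0.85. Around Glul, 18 of 22 genes of glutamine and glutamate metabolism were counted under a single row, and 9 rose, 8 fell and 1 did not pass (median 0.01). Their log2 fold changes stayed between -0.71 (Slc38a3, a glutamine transporter) and 0.52 (Gad1, which makes GABA), and none of them was a DEG.

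**Figure D4:**
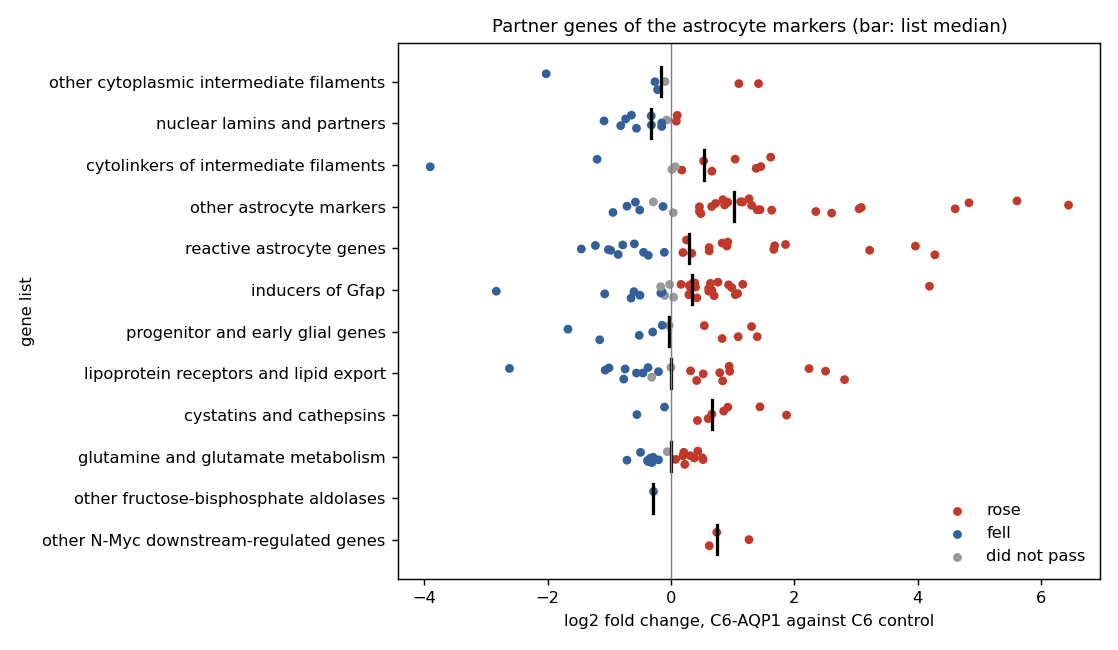
Log2 fold changes of the partner genes, with 1 row per list. Points are genes, coloured by whether they rose, fell or did not pass an adjusted p of 0.05 from edgeR, and black bars are list medians. Of the lists plotted, other astrocyte markers have the highest median (1.02), below those of the neuronal and fibroblast markers, which are not plotted (1.46 and 1.31), and lamins and their partners lie to the left of 0 (median -0.32).

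Genes that mark other cell types moved as well, and their part in the changes of the 9 genes was not tested. Of 15 oligodendrocyte lineage markers 11 had counts, of which 9 rose, none fell and 2 did not pass. Their summed level was 2847 to 2933 CPM in C6 control and 4110 to 4257 in C6-AQP1. Olig1, a lineage factor, rose by 2.68 and its relative Olig2 by 0.93 on the log2 scale, while Mbp, the major myelin protein, was at 2.61 CPM in C6 control and 3.01 in C6-AQP1. Olig2 and Mbp were picked after their values were seen. Of 14 neuronal markers 6 had counts (4 rose, 1 fell), with sums of 89.7 to 93.2 and 274 to 279 CPM, most of it from Map2. Syt1, a synaptic vesicle protein, had 0.166 and 10.7 CPM, and log2 fold changes were 2.87 for Snap25, 1.63 for Map2, 1.29 for Nrgn, 0.14 for Tubb3 (not past the test) and -1.54 for Syn1. Of 14 markers of microglia and macrophages 3 had counts (2 rose, 1 fell), with sums of 85.3 to 89.5 and 96.0 to 99.6 CPM. Of 12 endothelial markers 4 had counts (1 rose, 3 fell), with sums of 126 to 127 and 61.0 to 66.8 CPM. Of 14 fibroblast and pericyte markers 6 had counts (4 rose, 2 fell), with sums of 193 to 198 and 190.4 to 198 CPM. The median log2 fold change was 0.71 for the oligodendrocyte list, 1.46 for neuronal, 0.37 for microglial, -0.81 for endothelial and 1.31 for fibroblast and pericyte markers, so the neuronal and the fibroblast list had higher medians than the other astrocyte markers (1.02). The TPM limit on the count tables bears on these tallies and medians too. Defining markers such as Ptprc of leukocytes, Pecam1 of endothelium and Rbfox3 of neurons were among those without a count here, which does not mean without reads. In the short lists, log2 fold changes were 1.22 for P2ry12 and -0.59 for Tmem119 of microglia, and 1.66 for Tek, -0.48 for Esam, -1.13 for Flt1 and -1.29 for Slc2a1 of endothelium. Among fibroblast and pericyte markers, the collagen genes Col1a1 and Col3a1 had 2.60 and 2.26, Thy1 had 3.91, Pdgfrb 0.35, Tagln -2.32 and Postn, periostin, -3.54. Thy1 had only 1, 5 and 1 counts in C6 control replicates 1, 2 and 3, and Tagln 18, 33 and 19 in the C6-AQP1 replicates.

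Finally, the genes most like each marker were looked for, by the distance between log2 CPM profiles over the 6 libraries after centring. Only genes with a mean of at least 5 CPM were considered. The distance mostly reflects the size of the difference between the groups. Closest to Gfap was Pde1a, a cyclic nucleotide phosphodiesterase, with a distance of 0.20 and a log2 fold change of 3.53, and Islr, a secreted protein with leucine-rich repeats, was the third nearest. Closest to Vim was Zmiz2 at 0.02, to Nes Ppp2r5e at 0.03, to Aldoc the kinesin Kif21a at 0.04 and to Cst3 Nktr at 0.03. Genes of the partner lists were among the nearest too. The lysosomal protease Ctsd was closest to Glul at 0.03, the iron oxidase Cp was closest to Ndrg2 at 0.05, and Dst was the third nearest to Aldoc at 0.06. Dusp5, a phosphatase of MAP kinases, was closest to Clu at 0.12, with a log2 fold change of 2.44 beside 2.45.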

How the data were processed

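Total RNA of 6 libraries was sequenced after amplification of the cDNA. As the study's methods and the submitters' notes state, reads were checked with FastQC (0.11.2), trimmed with Trimmomatic (0.36), aligned to rn6 with STAR (2.5.1b) and assigned to genes with RSEM (1.2.29). No source used here names the gene annotation. The deposited tables hold the authors' expected counts per gene, not normalized, for genes with a mean TPM above 1 in a group. RSEM splits reads that fit several genes.

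Here the expected counts were rounded and compared with edgeR 4.0.16 (TMM scaling, robust quasi-likelihood test, no covariate, no further filter) in R 4.3.3, with Benjamini-Hochberg adjustment over 12121 genes. The standard error is the log2 fold change over the root of the test statistic. The count models were also tested on simulated data, drawn at the means and library sizes of these data. Ratios of genes were taken as log2 of counts plus 0.5. Alternatives were other scalings, DESeq2 1.42.0, limma-voom (3.58.1), a filter on low counts, a replicate block, and leaving out libraries. The genes and lists were chosen with earlier results of these data known. Besides the 9 genes and Aqp1, the text names up to 3 genes per list with the largest change among those with an adjusted p under 0.05 and a minimum of 50 counts per library in the higher group, any gene of a list with at most 6 counted genes, and the nearest genes by profile. Other genes are said to be picked later. Some genes that this rule names are not reported here. Among the 9 genes, depth limits mainly Apoe, with 20 to 67 counts. Some list genes rest on fewer counts in the lower group. In C6 control replicates 1, 2 and 3, Syt1 had 5, 5 and 9 counts, Snap25 4, 19 and 9, and C3 3, 8 and 10.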

Additional observations from a re-analysis of the deposited data

How the results depend on the processing

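The log2 fold changes of the 9 genes kept their direction and stayed under an adjusted p of 0.05 in all 13 alternatives each. They ranged from 3.55 to 3.63 for Gfap, 0.69 to 0.75 for Vim, 0.25 to 0.32 for Nes, 0.65 to 0.71 for Glul, 1.47 to 1.53 for Aldoc, 1.83 to 1.90 for Ndrg2, 0.74 to 1.00 for Apoe, 2.40 to 2.5 for Clu and 1.32 to 1.38 for Cst3. The highest adjusted p was 0.0188, for Apoe without C6-AQP1 replicate 3. The number of DEGs among them was 5 to 6. All 21 ratios kept their sign in 8 alternatives each, though tests without a library cannot reach 0.05. The libraries' replicate numbers did not pair them. Deviations of same-numbered libraries correlated at 0.268, -0.0445 and 0.0856 over 11407 genes, and only replicate 1 correlated best with its own number. C6-AQP1 replicate 2 correlated best with C6 control replicate 3 (0.241), and C6-AQP1 replicate 3 with C6 control replicate 2 (0.147). The replicate block follows the numbers and not this matching. With the replicate block, Gfap had a log2 fold change of 3.58 and Nes 0.26, and 5006 genes rose and 4976 fell in place of 4948 and 4930. Scaling by library totals alone moved the median of all genes by 0.05 on the log2 scale. Of 442 list counts, 438 stayed within 1.5 times. The number of cystatins and cathepsins that fell went from 2 to 1 under library totals, and was 1 to 2 when libraries were left out (1 without C6-AQP1 replicate 2, C6-AQP1 replicate 3 or C6 control replicate 2).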
